A study of Homo sapiens with 12 samples.

Results

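The mRNAs of 75 cytoplasmic ribosomal proteins were followed in NOMO-1 cells after transcription was stopped. They were chosen by symbol alone, as the genes named RPL or RPS with a number (and an A or X where the name has one), RPLP0, RPLP1, RPLP2 and RPSA, and they are 75 of the 9529 genes in the expression table. Of these, 46 encode proteins of the large ribosomal subunit and 29 encode proteins of the small subunit. RPS9 and RPS18 are not analysed here. NOMO-1 is an established human line of monocyte-like acute myeloid leukaemia cells. The cells carried a lentiviral hairpin against ALKBH5 (shALKBH5) or a non-targeting hairpin (shNS), and all of them were infected and selected with puromycin, per the labels' protocols. ALKBH5 takes the methyl group off N6-methyladenosine in RNA. Transcription was blocked with the drug actinomycin D for 0, 8 or 12 h, and polyadenylated RNA was sequenced, in 12 libraries that form 6 groups of 2. Each knockdown group holds 1 library of each of 2 hairpins, which the table names line D and line E, and the sources used here do not say which letter is which hairpin. Each shNS group holds 2 replicates. The labels' protocol text speaks of a lentivirus against FTO, another demethylase, whereas the sample titles name ALKBH5, and the titles were followed.

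Ribosomal proteins assemble with ribosomal RNA into the large and the small subunit, which join on an mRNA to make protein. Their mRNAs are abundant in growing cells, and most of them belong to the 5′TOP class, whose transcripts begin with a C followed by a run of pyrimidines (C or T). The run is bound by LARP1, through which the kinase mTOR adjusts the translation of the class, and members of the class are known as long-lived messages. With transcription blocked, the amount of an mRNA that is left over time reports how long it lasts, on the scale to which the libraries are set.

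The starts of 14 ribosomal protein genes are shown because their mRNAs kept the most or the least signal at 12 h within each subunit. RPL5 and RPL23 also belong to these named genes. Each window runs from 15 bases before to 15 bases after the transcription start that RefSeq gives on GRCh38.p14, 5′ to 3′ on the strand of the gene, and the capitals mark the longest run of pyrimidines that overlaps the 5 bases on either side of the start. The genes of the large subunit that kept the most were RPLP2 (chr11:809952-809981, plus strand), RPLP1 (chr15:69452803-69452832, plus), RPL13 (chr16:89560642-89560671, plus) and RPL35 (chr9:124861943-124861972, minus).
RPLP2: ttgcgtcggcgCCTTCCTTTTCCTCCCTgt
RPLP1: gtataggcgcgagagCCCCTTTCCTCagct
RPL13: ggccctgctatcaTCCCagagtgcattgcg
RPL35: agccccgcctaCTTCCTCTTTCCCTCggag
Of those that kept the least, RPL7A (chr9:133348203-133348232, plus) and RPL14 (chr3:40457324-40457353, plus) are shown.
RPL7A: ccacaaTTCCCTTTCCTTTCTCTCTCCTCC
RPL14: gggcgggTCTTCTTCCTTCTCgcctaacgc
In the small subunit the most was kept by RPS27 (chr1:153990747-153990776, plus), RPS15 (chr19:1438381-1438410, plus), RPS19 (chr19:41860240-41860269, plus) and RPSA (chr3:39406705-39406734, plus).
RPS27: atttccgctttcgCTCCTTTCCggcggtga
RPS15: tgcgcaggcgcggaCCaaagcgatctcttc
RPS19: ggaaaccccgtcgTTCCCTTTCCCCTggct
RPSA: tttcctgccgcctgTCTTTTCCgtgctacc
The least was kept by RPS3A (chr4:151099613-151099642, plus), RPS29 (chr14:49598696-49598725, minus), RPS13 (chr11:17077653-17077682, minus) and RPS4X (chrX:72277234-72277263, minus).
RPS3A: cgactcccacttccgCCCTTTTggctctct
RPS29: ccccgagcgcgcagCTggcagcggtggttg
RPS13: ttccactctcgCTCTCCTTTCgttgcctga
RPS4X: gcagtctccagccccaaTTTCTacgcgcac
The longest of these runs, 25 bases, starts 9 bases upstream of the annotated start of RPL7A, a gene that kept little. It goes on past the end of the window, which holds 24 of its bases. RPLP2, which kept the most, has a run of 17 bases. A long run therefore stood at genes of both kinds, and 60 of the 75 genes were found in the RefSeq promoter table, so the other genes were not searched.

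The libraries were checked against their labels before the ribosomal protein genes were read. The deposited signal of ALKBH5 at 0 h was 25.4 and 21.2 in lines D and E, against 84.3 and 78.6 in the shNS replicates, and it was lower in both knockdown lines at 8 and 12 h as well. Of 12 markers of a monocytic leukaemia line 9 were in the table, with signals at 0 h between 4.50 and 3572, while none of the erythroid, megakaryocyte or epithelial markers was in it and 1 of 5 lymphoid markers was. The table holds no value of 0, so a marker outside it has no level here. The sum of all gene signal was 826000 to 953211 at 0 h, 390103 to 580217 at 8 h and 143765 to 193639 at 12 h, whereas the median of 46 ERCC spike-in transcripts stayed between 29.9 and 33.1. The deposited signal is thus apparently scaled to RNA added to each library, so a change over time is a change per spike-in. Fewer cells and less RNA per cell cannot be told apart. The signal is not stated to be per length, and therefore genes are not ranked by level.

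Before actinomycin D the ribosomal protein mRNAs of knockdown and shNS cells overlapped in level. Their median signal at 0 h was 2128 and 2301 in lines D and E, against 2300 and 2195 in the shNS replicates. The large subunit had a median of 2116 and 2350 in lines D and E, against 2315 and 2236 in shNS. The small subunit had 2128 and 2242 in the knockdown lines, against 2300 and 2170 in shNS. Both subunits therefore overlapped between the arms. The range of single genes in a library ended at RPS29 and RPS27, whose signals are not stated to be per length and do not order the genes. RPS29 had a signal of 105 in line D and 132 in line E, against 117 and 113 in shNS. RPS27, which encodes a zinc-finger protein of the small subunit, had 5037 in line D and 6079 in line E, against 6229 and 5996 in shNS. In a limma fit over all genes, on log2(signal + 1), 0 of the 75 genes were called between knockdown and shNS at 0 h at a Benjamini-Hochberg adjusted p under 0.05, and 0 had an unadjusted p under 0.05. Of all genes, 1.33% were called higher and 0.136% lower, and 2115 of the 9529 had an unadjusted p under 0.05. The median difference of the 75 genes was −0.06 on the log2 scale, with a range of −0.39 to 0.24, while the median over all genes was 0.23. After median-of-ratios scaling, which sets the typical gene to no difference, the median of the 75 genes was −0.31. Both knockdown lines lay below both shNS replicates for 21 of the 75 genes and above both for 4, beside 6.88% and 46.4% of all genes.

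The ribosomal protein genes took up a smaller share of the gene signal in the knockdown lines at every time, a measure that does not depend on the scaling. At 0 h their summed signal was 17.5% of the gene signal in line D and 19.6% in line E, against 20.3% and 21.9% in the shNS replicates. At 8 h the share was 25.7% and 24.7% in lines D and E, against 30.8% and 31.3% in shNS. At 12 h it was 26.5% and 24.4% in the knockdown lines, against 31.2% and 30.3% in shNS. The arms did not overlap at any time, and the gap between their means was smallest at 0 h, where the share averaged 18.6% ± 1.48 in knockdown and 21.1% ± 1.08 in shNS (SD, n = 2 each). It averaged 25.2% ± 0.697 against 31.0% ± 0.379 at 8 h and 25.5% ± 1.51 against 30.7% ± 0.635 at 12 h, knockdown against shNS (SD, n = 2 each). An exact permutation test of 2 libraries against 2 cannot give a two-sided p below 0.33, and these shares are given as a description. The table also lists the 18S and 28S ribosomal RNAs, whose signal differed between libraries. The 18S signal at 0 h was 22486 and 32489 in lines D and E, against 55899 and 35578 in shNS. Without the ribosomal RNAs, the share was 18.4% and 20.9% in lines D and E at 0 h, against 23.0% and 23.7% in shNS, so the order stayed. It was then 27.2% and 26.4% against 33.0% and 32.2% at 8 h, and 28.2% and 26.2% against 33.5% and 31.9% at 12 h, knockdown lines against shNS.

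**Figure D1:**
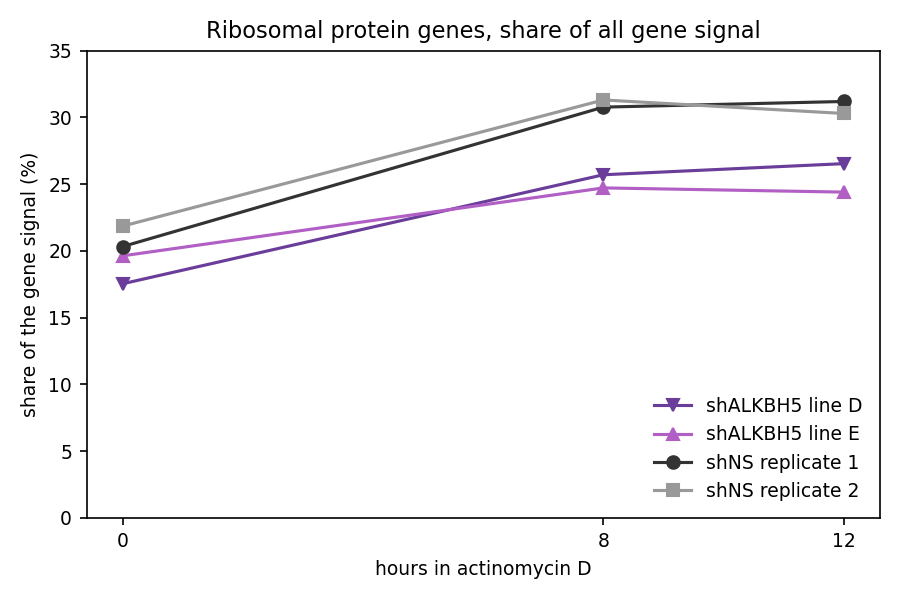
Share of the summed gene signal that comes from the 75 ribosomal protein genes (%, vertical axis) against hours in actinomycin D (horizontal axis), with a line for each shALKBH5 line and each shNS replicate. Both knockdown lines lie below both shNS replicates at each time, at 24.4% to 26.5% at 12 h against 30.3% to 31.2%, and all 4 start lower at 0 h.

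Over 8 h in actinomycin D these mRNAs were kept better than the typical mRNA in every line and replicate. The median signal left, as a percentage of the signal at 0 h in the same line or replicate, was 60.7% and 57.6% in lines D and E, against 94.3% and 83.2% in the shNS replicates. The median gene of the whole table kept 23.9% and 33.6% in lines D and E, against 42.2% and 41.1% in shNS. All 75 ribosomal protein genes were above the median gene in each of the 4, and their median was 2.54 and 1.71 times that of all genes in lines D and E, against 2.23 and 2.02 times in shNS. Their values ran from 39.8% to 80.1% in line D and from 43.7% to 69.6% in line E, against 72.6% to 108% and 66.8% to 109% in the shNS replicates. In shNS replicate 1 the signal of 21 of the 75 was at or above its starting level, in shNS replicate 2 that of 1 was, and in either knockdown line that of 0 was. For all 75 genes both knockdown lines kept less than both shNS replicates at 8 h, but 82.5% of all genes were ordered in the same way, so the order is close to the background of the table.

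Between 8 and 12 h the ribosomal protein mRNAs fell per spike-in about as steeply as the typical gene. The median signal left at 12 h was 28.9% and 18.3% in lines D and E, against 31.8% and 27.7% in the shNS replicates, while the median gene kept 10.9% and 10.7% in the knockdown lines, against 11.9% and 12.9% in shNS. For the median ribosomal protein gene the signal at 12 h was 48.2% and 32.0% of that at 8 h in lines D and E, against 33.6% in each shNS replicate. For the median of all genes it was 48.1% and 32.9% in the knockdown lines, against 29.99% and 32.9% in shNS. The lead of these mRNAs over the typical gene was thus largely in place by 8 h. At 12 h their median was 2.65 and 1.72 times that of all genes in lines D and E, against 2.68 and 2.14 times in shNS. In shNS replicate 1 this ratio had been 2.23 at 8 h. The median gene had a low signal at 12 h, 3.12 and 2.81 in lines D and E, against 2.85 and 2.74 in shNS. Whether a floor limited its late fall was not tested. All 75 were again above the median gene in each line and replicate. At 12 h the knockdown lines were both below shNS for 21 of the 75 genes in the percentage left, beside 41.2% of all genes. The knockdown lines also differed from each other, as line D was above line E for all 75 genes at 12 h, beside 58.6% of all genes, and for 51 of 75 at 8 h, beside 12.2%.

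The medians of the large and the small subunit lay close together. At 8 h the large subunit kept a median of 59.6% in line D and 57.4% in line E, against 94.6% and 82.9% in shNS, and the small subunit kept 61.4% and 59.0% in the knockdown lines, against 93.1% and 83.8% in shNS. At 12 h the large subunit kept 29.3% and 18.3% in lines D and E, against 31.7% and 27.5% in shNS, and the small subunit kept 28.7% and 18.3%, against 31.8% and 28.6%. The medians of the subunits differed by −1.72 to 1.49 percentage points, large minus small, in the 8 pairs of values, with either sign. The ratio of their summed signals was 1.46 and 1.5, large over small, in lines D and E at 0 h, against 1.5 in each shNS replicate. At 12 h that ratio was 1.37 and 1.45 in the knockdown lines, against 1.40 and 1.41 in shNS. The ratio was therefore lower at 12 h than at 0 h in each line and replicate, and by the least in line E.

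**Figure D2:**
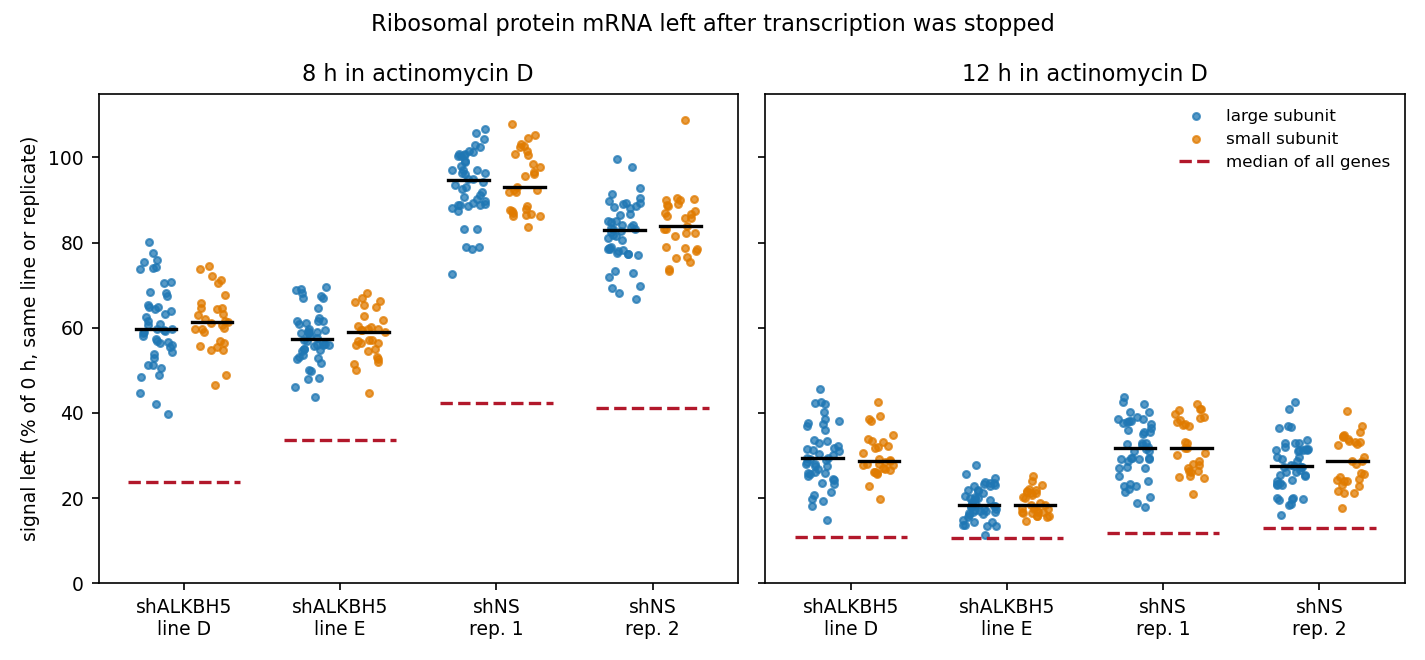
Signal left at 8 h (left panel) and 12 h (right panel) as a percentage of 0 h in the same line or replicate (vertical axis), for shALKBH5 lines D and E and then shNS replicates 1 and 2. Each point is 1 ribosomal protein gene of the large (blue) or small (orange) subunit, black bars are subunit medians and red dashes are the median of all 9529 genes. Every cloud lies above its dashed line, and relative to the median gene the ribosomal protein genes therefore rise, although their signal per spike-in falls.

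Tested across all genes, the fall of these mRNAs was small by 8 h and large by 12 h, and its direction holds per spike-in only. In shALKBH5 cells all 75 changes by 8 h were negative per spike-in, and 73 of the 75 genes were called lower. Their median change was −0.76 on the log2 scale, while 96% of all genes were called lower, with a median of −1.66. The genes not called were RPL13, with a change of −0.46 (adjusted p = 0.0585), and RPL27A, with −0.47 (adjusted p = 0.105). In shNS cells 73 of the 75 changes by 8 h were negative per spike-in. RPL7A was called lower, by 0.51 log2 units (SE 0.22, limma adjusted p = 0.0449). The count called lower was thus 1, although 82.2% of all genes were called lower. The counts called by 8 h depend on single libraries, and the share of all genes called without each library is not given. Leaving out 1 library at a time, the median change of the 75 genes was −0.31 to −0.05 in shNS and −0.82 to −0.69 in shALKBH5. The median change of the 75 genes in shNS was −0.18, against −1.15 for all genes. RPL7A encodes a large-subunit protein and lies on chromosome 9 from 133348214 to 133351426. By 12 h all 75 genes were called lower per spike-in in both arms, with a median change of −2.11 in shALKBH5 and −1.72 in shNS. The medians of all genes were −2.80 and −2.56, and 99.6% and 99.5% of all genes were called lower. The median gene had a signal of 3.12 and 2.81 at 12 h in lines D and E, against 2.85 and 2.74 in shNS. At such values the 1 added before the log2 makes the all-gene fall smaller than the percentage left shows. With median-of-ratios scaling the direction turned, and 74 of the 75 genes were called higher by 8 h in shALKBH5 and all 75 in shNS, beside 21.3% and 18.9% of all genes. At 12 h the numbers called higher under that scaling were 73 in shALKBH5 and 74 in shNS, beside 22.1% and 24.6% of all genes. The same values thus give a fall per spike-in and a gain relative to the median mRNA. The deepest falls by 12 h in shALKBH5 were those of RPL7 (−2.82), RPL5 (−2.75), RPL14 (−2.67), RPS3A (−2.56) and RPL23 (−2.53). In shNS they were those of RPL7A (−2.57), RPL23 (−2.42), RPL5 (−2.37), RPL14 (−2.27) and RPL26 (−2.26).

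At 8 h the knockdown libraries held less ribosomal protein mRNA per spike-in than the shNS libraries, and 9 of 75 genes were called lower, beside 4.51% of all genes. The other 66 were not called, although all 75 differences were negative. Both knockdown lines lay below both shNS replicates for all 75, beside 42.8% of all genes. In the limma fit 62 of the 75 had an unadjusted p under 0.05, beside 2471 of all 9529 genes. The median difference was −0.64 on the log2 scale, against −0.23 for all genes. It was −0.35 for the 75 genes after median-of-ratios scaling and −0.53 after rescaling to the mean of the spike-ins, so the direction of the median was the same under each. The gene with the largest difference was RPL7, a large-subunit protein with RNA-binding activity, with signals of 1288 in line D and 2051 in line E, against 4085 and 3375 in shNS. Its difference was −1.19 (SE 0.25, limma adjusted p = 0.0259). RPL5, which carries the 5S ribosomal RNA into the large subunit, had 755 and 732 in lines D and E, against 1672 and 1383 in shNS, a difference of −1.03 (SE 0.25, adjusted p = 0.0427). RPL9 had 1224 and 1527 in lines D and E, against 2963 and 2426 in shNS (difference −0.97, adjusted p = 0.0273). In each of these genes the higher knockdown line was below the lower shNS replicate. RPL3, next to the peptidyl transferase centre, differed by −0.94 (adjusted p = 0.0445). RPL12, at the base of the stalk, differed by −0.88 (adjusted p = 0.0452). The remaining called genes were RPL39, RPS3A, RPL21 and RPS20, with differences between −0.86 and −0.78. The calls depend on single libraries, and the share of all genes called without each library is not given. Without any 1 of the 6 shNS libraries, of any time, or without line D at 8 h, 0 genes were called, without line E at 8 h 18 were, and without line D or line E at 12 h 47 were. After rescaling to the mean of the spike-ins 0 were called, and after median-of-ratios scaling 2, RPL7 and RPL9, beside 3.38% of all genes called lower.

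For some of the genes called, part of this gap was present at 0 h. The signal of RPL7 at 0 h was 3234 and 4287 in lines D and E, against 4575 and 4050 in shNS, where line E lay within the shNS range. RPL12 had 2630 and 3026 in lines D and E at 0 h, against 3846 and 3538 in shNS, and RPL3 had 2135 and 2699, against 3155 and 2869. For both genes the knockdown lines were thus lower from the start. The same was true of RPL5 (1796 and 1676 in lines D and E, against 2120 and 1995 in shNS), RPL9 (2741 and 2902, against 3325 and 3150) and RPL21 (849 and 961, against 972 and 969). In RPL39, RPS3A and RPS20 the arms overlapped at 0 h. The change by 8 h was then compared between the arms, in the same fit. That fit does not pair the libraries of a knockdown line across times. None of the 75 genes was called, the lowest adjusted p being 0.299, and 10 had an unadjusted p under 0.05. None of the 9529 genes was called in that comparison (0% of all genes), and 1560 of them had an unadjusted p under 0.05. The median difference of the change was −0.57 for the ribosomal protein genes and −0.48 for all genes, and after median-of-ratios scaling that of the ribosomal protein genes was −0.02. With each line and replicate as a block, 12 of the 75 were called lower, beside 26.1% of all genes. The call thus depends on the block, and with it a smaller share of the ribosomal protein genes than of all genes was called. By 12 h the median difference of the change was −0.32, against −0.19 for all genes, and again none was called. With line D alone as the knockdown this median was −0.00178, and with line E alone it was −0.66. In the fit with both lines, an unadjusted p under 0.05 was found for 2 of the 75 genes, beside 337 of all 9529. The comparison of levels at 12 h called 0 of the 75 genes, beside 0.525% of all genes called higher and 0.493% lower. It put 27 of the 75 at an unadjusted p under 0.05, beside 1675 of all 9529 genes. Its median was −0.41, against 0.06 for all genes. Both knockdown lines lay below both shNS replicates for 37 of the 75, beside 25% of all genes. The median of −0.41 became −0.13 with line D alone as the knockdown and −0.62 with line E alone.

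**Figure D3:**
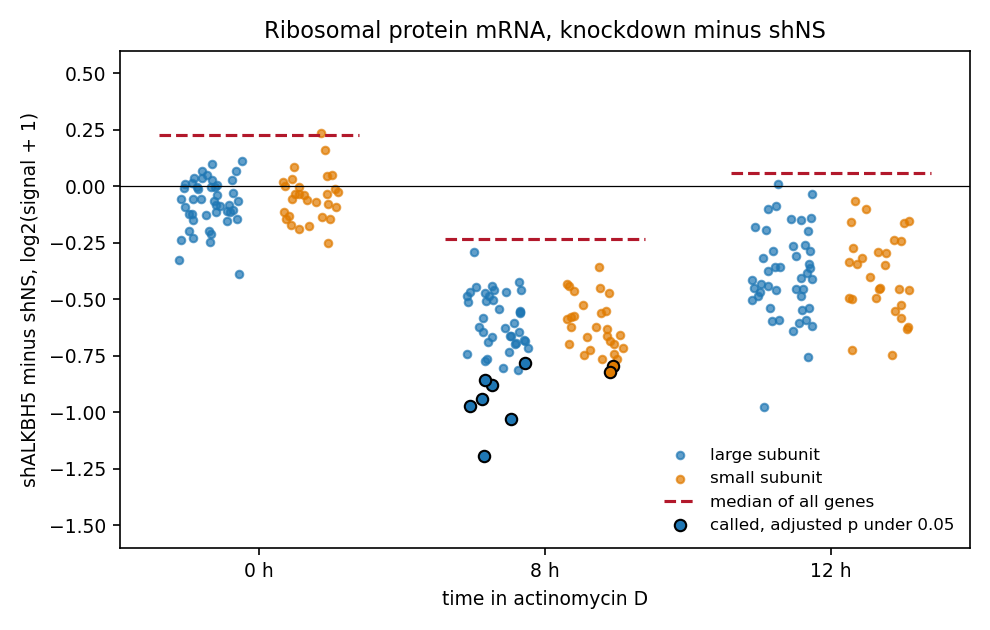
Difference between shALKBH5 and shNS, knockdown minus shNS, in log2(signal + 1) (vertical axis) at 0, 8 and 12 h in actinomycin D (horizontal axis). Points are the 46 large-subunit and 29 small-subunit genes, ringed where called at an adjusted p under 0.05, and red dashes are the median of all genes. The medians of the ribosomal protein genes are −0.06, −0.64 and −0.41, below the median of all genes (0.23, −0.23 and 0.06) at each time. At 12 h the median of the ribosomal protein genes is −0.13 with line D alone and −0.62 with line E alone.

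Among the ribosomal protein genes themselves the signal left at 12 h differed from gene to gene, in an order that recurred across the lines. The genes of the large subunit that kept the most were RPLP2, RPLP1, RPL13 and RPL35. RPLP2, a phosphoprotein of the acidic stalk that binds translation factors, kept 42.2% in line D and 27.7% in line E, against 43.7% and 40.8% in the shNS replicates. Its signal at 0 h was 1488 and 1686 in lines D and E, against 1615 and 1476 in shNS, and at 12 h it was 628 and 467 in the knockdown lines, against 705 and 602. The gene lies on chromosome 11, from 809647 to 812880 (GENCODE release 29, GRCh38), and its start carries the run of 17 pyrimidines printed above. RPLP1, its partner in the stalk, kept 40.3% and 25.8% in lines D and E, against 40.2% and 42.5% in shNS. RPLP0, the stalk's anchor on the large subunit, kept 31.6% and 23.0% in the knockdown lines, against 38.5% and 36.4%. RPL13 kept 42.1% and 24.8% in lines D and E, against 42.6% and 36.6% in shNS, and RPL35 kept 37.3% and 23.8%, against 42.2% and 36.8%. In each of the 5 genes line E kept the least, and line D lay within the shNS range except in RPLP0.

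The genes that kept the least in the large subunit were RPL5, RPL7A, RPL23 and RPL14. RPL5 kept 19.4% and 11.4% in lines D and E, against 20.2% and 18.4% in shNS. Its signal at 0 h was 1796 and 1676 in lines D and E, against 2120 and 1995 in shNS, and at 12 h it was 349 and 191, against 428.5 and 367.5. RPL11, which joins RPL5 and the 5S RNA in a particle that can bind MDM2, kept 29.3% and 17.5% in lines D and E, against 29.1% and 25.5% in shNS. Members of 1 particle therefore differed, and RPL11 ranked 46 of 75 from the most to the least kept while RPL5 ranked 75. RPL7A kept 23.6% and 13.7% in the knockdown lines, against 17.8% and 15.98% in shNS, so that line D kept more than either shNS replicate. RPL23, another protein known to bind MDM2, kept 20.7% and 14.4% in lines D and E, against 18.7% and 18.6% in shNS. RPL14 kept 18.2% and 13.5%, against 21.5% and 20.0%. RPL7, the gene with the largest difference between arms at 8 h, kept 14.7% and 13.5% in lines D and E, against 23.9% and 24.1% in shNS.

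In the small subunit RPS27, RPS15, RPS19 and RPSA kept the most. RPS27 kept 42.4% in line D and 25.1% in line E, against 39.1% and 35.4% in shNS. Its signal at 12 h was 2138 and 1525 in the knockdown lines, against 2435 and 2125 in shNS. RPS19, the gene most often mutated in Diamond-Blackfan anaemia, a failure of red cell production, kept 38.6% and 23.0% in lines D and E, against 40.8% and 33.8% in shNS. RPS24, RPS26 and RPL35A, also linked to that disease, kept less. RPS24 kept 28.7% and 17.3% in lines D and E, against 31.8% and 29.6% in shNS, and RPS26 kept 28.9% and 19.9%, against 28.7% and 24.5%. RPL35A, from the large subunit, kept 24.1% and 16.7% in the knockdown lines, against 27.1% and 23.0% in shNS. RPS27 and RPL5, described above, have been linked to it as well, so its genes were found at both ends of the order, with RPS27 at rank 4 and RPL5 at rank 75. RPS14, whose loss marks the myelodysplastic syndrome with a deletion of the long arm of chromosome 5, kept 27.7% and 17.4% in lines D and E, against 33.3% and 27.9% in shNS.

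RPS3A, RPS29, RPS13 and RPS4X kept the least in the small subunit. The signal of RPS3A at 0 h was 2261 and 2532 in lines D and E, against 2582 and 2515 in shNS, and 447 and 368 at 12 h, against 539 and 531. This left 19.8% and 14.5% in the knockdown lines, against 20.9% and 21.1% in shNS. RPS4X, encoded on the X chromosome, kept 26.9% and 16.4% in lines D and E, against 24.7% and 21.3% in shNS. RPS29, a zinc-binding protein, kept 74.6% and 44.6% in lines D and E at 8 h, against 95.6% and 83.1% in shNS, the widest gap between the knockdown lines at that time among the 75. RPS2 and RPS3 lie where the mRNA enters the small subunit. RPS2 kept 33.8% and 20.2% at 12 h in lines D and E, against 37.8% and 34.3% in shNS. RPS3 kept 27.1% and 16.7%, against 26.1% and 22.9%, less than RPS2 in each line and replicate. RPS27A, made as a fusion with ubiquitin, kept 26.6% and 17.5% in lines D and E, against 31.8% and 26.0% in shNS.

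The proteins that line the exit tunnel of the large subunit include RPL4, RPL17 and RPL39, and their mRNAs were not kept alike. At 12 h RPL39 kept 26.9% in line D and 18.4% in line E, against 31.9% and 29.5% in shNS. RPL4 kept 23.3% and 13.8% in the knockdown lines, against 22.8% and 19.7%, and RPL17 kept 25.6% and 16.3%, against 22.8% and 20.0%. RPL39 was thus the best kept of the 3 at 12 h in every line and replicate. At 8 h RPL17 was above it in both knockdown lines, with 56.9% and 54.9% in lines D and E, against 54.4% and 54.7% for RPL39. RPL10, needed for the late maturation of the large subunit, kept 28.4% and 18.5% in lines D and E, against 35.01% and 29.6% in shNS. RPL22 kept 26.0% and 17.8% in the knockdown lines, against 29.4% and 27.4%, and RPL3 kept 26.2% and 14.5%, against 28.6% and 24.1%.

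**Figure D4:**
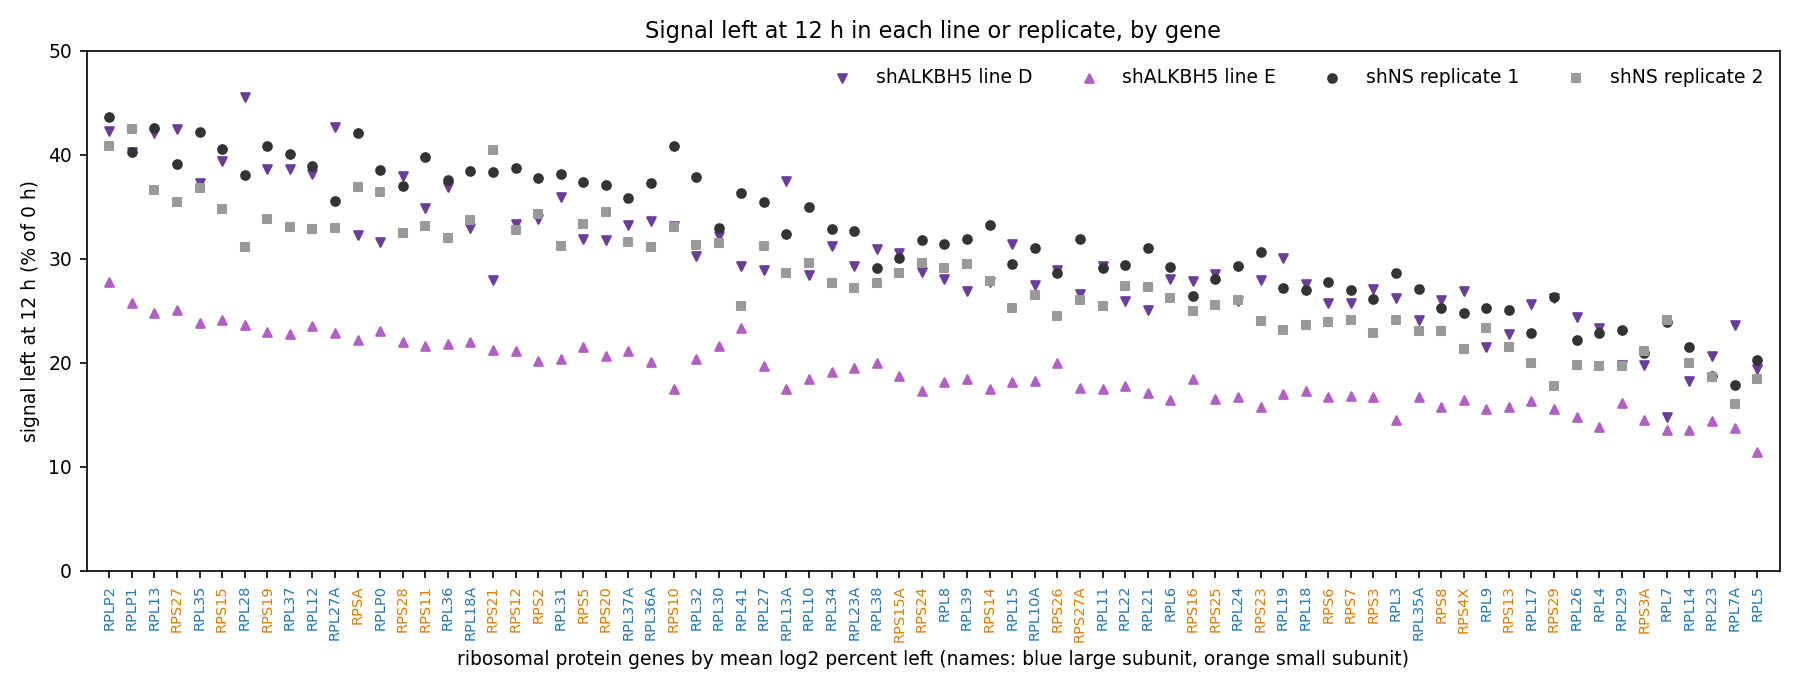
Signal left at 12 h as a percentage of 0 h (vertical axis) for 74 of the 75 ribosomal protein genes, ordered by their mean over the 4 (horizontal axis, blue names large subunit, orange names small subunit). Symbols are shALKBH5 lines D and E and shNS replicates 1 and 2. Line E is lowest for every gene shown. The fall from RPLP2 (42.2% and 27.7% in lines D and E, against 43.7% and 40.8% in shNS) to RPL5 (19.4% and 11.4%, against 20.2% and 18.4%) is seen in each. Both genes are the ends of an order made from these same values, so this fall is not separate evidence for the order.

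The order of the genes was similar between libraries of the same arm, given here as a description. Over the 75 genes the log2 of the percentage left at 12 h in line D and line E had a Pearson correlation of 0.87, against 0.94 between the shNS replicates. At 8 h these values were 0.60 and 0.83, lower than over all genes, for which they were 0.89 and 0.97. The points are genes, which share their library and its scaling and are not independent replicates.

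Coding length went with the signal left inside the family. The 75 coding sequences of GENCODE release 29 run from 75 to 1281 bases, with a median of 474 bases in the large subunit and 438 in the small. The 46 genes of up to 500 bases kept a median of 30.4% at 12 h in line D and 19.9% in line E, against 34.3% and 30.3% in shNS. The 29 longer genes, 20 of them of the large subunit, kept 27.5% and 16.8% in lines D and E, against 27.8% and 24.1% in shNS. Shorter members were thus kept better in each line and replicate. Spearman's rho between coding length and the percentage left was −0.37 and −0.45 at 12 h in lines D and E, against −0.35 and −0.32 in shNS, over 75 genes. Over the 8753 genes of the table with a coding length it was −0.12 and −0.23 in lines D and E, against −0.22 and −0.23 in shNS. The long genes RPLP0, RPSA and RPS2 kept more than most of their length.

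**Figure D5:**
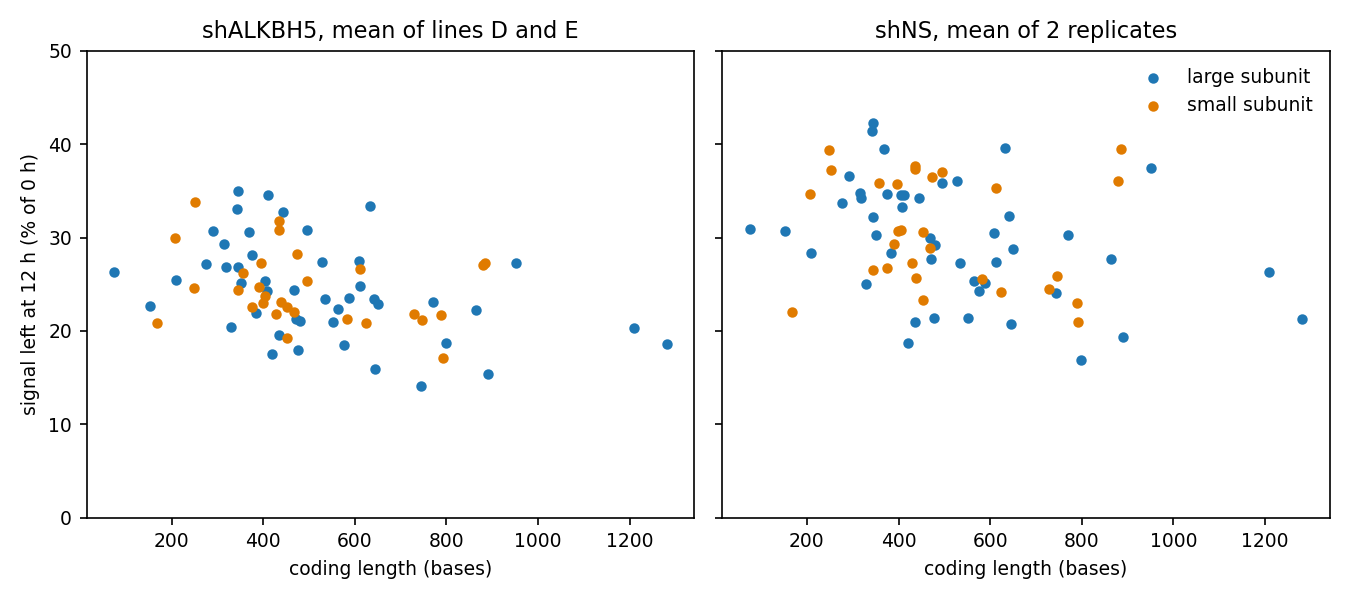
Signal left at 12 h as a percentage of 0 h (vertical axis) against coding length in bases (horizontal axis) for the 75 ribosomal protein genes, as the mean of lines D and E (left panel, shALKBH5) and of the 2 replicates (right panel, shNS). Genes of up to 500 bases kept a median of 30.4% and 19.9% in lines D and E, against 34.3% and 30.3% in shNS, and the longer genes kept less in each.

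The 5′ end was read next. A C at the annotated start followed by 4 bases that are each C or T was found at 40 of the 60 genes in the promoter table, 25 of the large and 15 of the small subunit, on the strand of the gene, beside 4.07% of all 35116 promoters. A run of at least 6 pyrimidines that overlaps the 5 bases on either side of the start was found at 46 of the 60, beside 22.2% of all promoters. This run can overlap the first motif. Genes with the C and 4 pyrimidines kept a median of 29.03% at 12 h in line D and 18.4% in line E, against 32.7% and 28.3% in shNS. The other 20 kept 28.2% and 17.5% in the knockdown lines, against 29.2% and 25.3% in shNS. Genes with the motif were a little higher in each line and replicate. A small nucleolar RNA lies inside 28 of the 75 genes, 19 of the large and 9 of the small subunit. Genes with one kept a median of 29.7% and 19.0% in lines D and E, against 32.8% and 29.6% in shNS at 12 h, and genes without one kept 28.9% and 18.2%, against 31.0% and 27.4%. At 8 h genes with one kept 60.7% and 58.4% in lines D and E, against 96.4% and 82.7% in shNS, and genes without one kept 60.9% and 57.6%, against 93.1% and 83.3%. The order at 8 h was thus the other way round in line D and in shNS replicate 2.

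Other mRNAs of the translation machinery were set beside the ribosomal protein genes. A list of 21 other 5′TOP mRNAs, of elongation and initiation factors and related proteins, kept a median of 47.9% and 50.2% at 8 h in lines D and E, against 76.8% and 70.3% in shNS, between the ribosomal protein genes and the median gene. By 8 h 21 of the 21 were called lower in shALKBH5, where 96% of all genes were, and 7 in shNS, where 82.2% of all genes and 1 of the 75 ribosomal protein genes were. FAU encodes the ribosomal protein RPS30 as a fusion and was not chosen by the symbol rule. FAU kept 28.9% and 21.3% at 12 h in lines D and E, against 40.9% and 35.97% in shNS. The members of the list with the deepest change by 12 h in shNS were EIF4B, EIF3E, EEF2 and NPM1. EIF4B, an initiation factor, kept 9.53% and 4.33% at 12 h in lines D and E, against 5.59% and 5.09% in shNS.

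The mRNAs of proteins with a similar sequence or a similar task but another gene kept less in the median, though not for every pair by much. The paralogs RPL26L1, RPL39L, RPL7L1, RPL36AL, RPS27L and RPL22L1 kept a median of 29.2% and 40.3% at 8 h in lines D and E, against 50.3% and 49.1% in shNS, and 9.72% and 10.1% at 12 h, against 13.2% and 11.1%. At 12 h RPL39L kept 5.85% and 8.45% in lines D and E, against 8.54% and 7.33% in shNS, whereas RPL39 kept 26.9% and 18.4%, against 31.9% and 29.5%. RPS27L kept 14.4% and 12.4% in lines D and E, against 14.7% and 16.6% in shNS, below RPS27 in each. In shNS RPL22L1 kept 84.5% and 75.5% at 8 h, where RPL22 kept 89.7% and 83.7%. At 12 h it kept 23.2% and 24.2% in shNS, where RPL22 kept 29.4% and 27.4%. In lines D and E RPL22L1 kept 14.1% and 13.4% at 12 h, where RPL22 kept 26.0% and 17.8%. By 8 h 6 of the 6 paralogs were called lower in shALKBH5 and 5 in shNS, shares close to the 96% and 82.2% of all genes. The proteins of the mitochondrial ribosome, from 77 genes of the table, kept 7.39% and 7.93% at 12 h in lines D and E, against 6.92% and 8.35% in shNS. By 8 h 77 of these 77 were called lower in shALKBH5, beside the 96% of all genes, and 72 in shNS, beside the 82.2%. MRPS30, the one with the deepest change by 12 h in shNS, kept 3.04% and 3.11% in lines D and E, against 2.06% and 2.90% in shNS. In each line and replicate the median of the cytoplasmic ribosomal protein mRNAs was above that of the mitochondrial ones.

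Copies in the genome limit some of these values. RSEM was named for the counting in the submitters' processing notes, and how it divided reads between a gene and its processed pseudogenes was not tested. The pseudogene RPL13AP5 had a signal at 0 h of 216% of that of RPL13A in line D and 241% of it in line E, against 201% and 206% in shNS. RPSAP58 had 17.01% and 18.4% of the signal of RPSA in lines D and E, against 16.97% and 17.99% in shNS, and RPL21P28 had 15.2% and 13.3% of that of RPL21, against 15.6% and 14.5%. The levels of RPL13A, RPSA and RPL21 are therefore uncertain, and those of other genes with close pseudogenes may be.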

How the data were processed

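Poly(A) RNA of 12 NOMO-1 libraries was measured. The deposited table gives 1 signal value for each gene symbol and library, made by the authors with STAR and RSEM on GRCh38, per the submitters' processing notes. The sources used here give neither tool versions nor the scaling step. The signal is apparently scaled to the ERCC transcripts. Since it holds no counts, the depth is unknown and values carry no counting interval. Columns without a sample numbered 0. No label calls the replicates separate cultures, and p-values therefore cover only the spread among these 12 libraries, part of which may be technical.

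The members were chosen by symbol, and members, lists and tests were chosen with earlier results of these data known. All 9529 genes, each with a mean of at least 1 (the lowest was 1.30), were fitted as log2(signal + 1) with limma 3.58.1 in R 4.3.3, as 6 group means over 12 libraries, with empirical Bayes and a mean-variance trend. P-values were adjusted by Benjamini-Hochberg over all 9529 genes, and an adjusted p under 0.05 was called. Percent left divides the signal at 8 or 12 h by the 0 h signal of the same line or replicate, computed with pandas 2.3.3. The fit was tested on simulated data. Genes were named by a rule: per subunit the 4 with the most and the 4 with the least left at 12 h, up to 5 called genes per comparison, members of fixed role lists, and up to 4 of each comparison list. FAU, RPS27L, RPL22L1 and the genes called at 8 h beyond the 5 were named after their values were seen. So were RPL13, RPL27A, RPL13A and RPL21 where the text gives them for another reason. Some genes that the rule picks are not reported here.

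The libraries of a knockdown line pair across times, since a line is the same hairpin throughout, and the deviations of the lines from their group means had correlations of 0.66 to 0.90 between times. Those of the shNS replicate numbers were 0.07 to 0.27, so these numbers were not taken to pair. The percentages left in shNS, and the block, nevertheless join libraries of the same number, as a convention. Alternatives were a pseudocount of 0.1, a mean of at least 5, no filter, median-of-ratios scaling, rescaling by the ERCC mean log2, limma without trend, only the libraries of the groups compared, line D or line E alone, the line or replicate as a block, and leaving out each library in turn.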

Additional observations from a re-analysis of the deposited data

How the results depend on the processing

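Median-of-ratios scaling turned the changes over time. Under it the median signal left was 218% at 8 h and 217% at 12 h in shALKBH5, and 219% and 242% in shNS, against 59.2% ± 2.22, 23.6% ± 7.50, 88.8% ± 7.88 and 29.8% ± 2.96 as deposited (SD, n = 2 each). It called 74 genes higher and 0 lower by 8 h in shALKBH5, 75 and 0 in shNS, and at 12 h 73 and 0 in shALKBH5 and 74 and 0 in shNS. With the replicate block added these were 75 and 0, 75 and 0, 74 and 0, and 74 and 0. RPL7A then changed by 0.80 by 8 h in shNS under both (adjusted p = 0.00991 and 0.00637). The cause was not tested. The ERCC rescaling gave 66.4% left at 8 h in shALKBH5 and 33.9% at 12 h in shNS, and 0 genes called lower by 8 h in shNS. Between knockdown and shNS at 8 h, 9 genes became 2 under median-of-ratios, 0 under the ERCC rescaling, 34 with only the groups compared, 70 with line D alone and 59 with line E alone. At 12 h, 0 became 15 under median-of-ratios, 1 with a pseudocount of 0.1, 7 lower and 1 higher with line D alone and 63 lower with line E alone. At 0 h line D alone gave 3 lower. For the difference of the change by 8 h, line D alone gave 28, line E alone 1 and the replicate block 12, and by 12 h line E alone gave 3. The block moved the change by 8 h in shNS to 5 genes and changed no other count by over 1.5 times on the deposited scale, and only the groups compared gave 13. No block was possible for knockdown against shNS at a single time, since the numbers do not pair across the arms. Leaving out 1 library at a time gave 0 to 47 genes between knockdown and shNS at 8 h and 0 to 2 at 12 h, 42 to 75 for the change by 8 h in shALKBH5 (42 without line E at 0 h, 53 without line D at 8 h), and 0 to 6 in shNS (6 without either knockdown line at 12 h, otherwise 0). Where 1 library remained in a group, its spread was taken from the other groups. Where neither this section nor the main text gives a share of all genes, a count of called genes has no background. Each of the 9 genes was called in 11 to 13 of 21 alternatives. The log2 ratio of the subunits' medians, −0.04 and 0.01 at 8 and 12 h in shALKBH5 and 0.00411 at 8 h in shNS, became −0.0229, −0.0212 and −0.0244 as a mean of log2 values, −0.0114 and 0.0373 in shALKBH5 without the 6 genes that have an expressed paralog, and −0.0422 at 8 h in shALKBH5 with members of a mean of at least 100. Without those 6 genes the share of the gene signal was 16.5%, 22.5% and 22.7% at 0, 8 and 12 h in shALKBH5, against 18.7%, 27.3% and 27.2% in shNS. The setting with no filter removed no gene and is void. With 2 libraries a group and no read depth, differences below about the spread of the libraries were not detectable.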
